A study of Arabidopsis thaliana with 15 samples.

Results

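Seedlings given 10 µM cercosporin were compared with seedlings given 1 µM. The members of this comparison were chosen by their labelled dose alone and were 6 of the 15 libraries of the study, 3 at each dose. All libraries came from whole, untransformed Arabidopsis thaliana seedlings of the ecotype Col-0, 2 weeks old. Cercosporin is a red toxin that Cercospora fungi release into leaves. Seedlings of both doses were kept with the toxin for 1 h without light, rinsed 3 times and lit at 30 µE for 30 min, so that the labels separate them by dose and not by light. The other 9 libraries, 3 each of untreated controls that stayed in light and of seedlings given 0.1 or 100 µM, serve here as context. RNA was counted by bulk MARS-seq, a 3'-end sequencing protocol. The labels do not call the replicates separate cultures, so p-values here speak for the spread among these libraries, which could be technical.

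Cercosporin is a photosensitiser: in light it passes the energy it absorbs to oxygen and forms singlet oxygen and superoxide. In plants singlet oxygen is known to induce a set of early nuclear genes, among them ethylene response factors (ERFs), zinc finger factors and enzymes of jasmonate synthesis. Jasmonates are lipid hormones made from plastid fatty acids by lipoxygenase, allene oxide synthase and allene oxide cyclase, and cytochrome P450 enzymes of the CYP94 family switch the active conjugate off. Light-harvesting proteins bind chlorophyll around both photosystems, and extensins are hydroxyproline-rich proteins of the cell wall that are abundant in root hairs.

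Libraries held 834190 counts (1 µM replicate 2) to 3061276 counts (1 µM replicate 3) at 1 µM and 1574746 to 4554702 counts at 10 µM. Among the 6 libraries, principal component 1 (34.2% of the variance) set 1 µM replicate 2 apart at -47.8, with the other 1 µM libraries at -4.46 and -5.67 and the 10 µM libraries between 10.7 and 25.7. The sample codes begin with the digit 8 in every 10 µM library and 7 in every 1 µM library. What the digit stands for is not given, and a difference that follows it cannot be told apart from one that follows dose in these 6 libraries. Leaf markers took 2.15 to 2.23% of counts at 1 µM and 1.98 to 2.18% at 10 µM, and root markers were detected in all 6 libraries, as whole seedlings would give.

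Among the genes higher at 10 µM than at 1 µM were 4 of 13 tested jasmonate synthesis genes, 3 of 9 of jasmonate breakdown, 2 of 16 activating ERFs and 2 of 9 zinc finger factors. Among the lower genes were 6 of 20 tested light-harvesting genes and 9 of 20 extensin and other root hair wall genes. Most members of each of these groups did not pass the test. The groups and their members were chosen with earlier results of these data known. Their shares can thus be partly built in and are no test of a group. Of 10374 genes tested, 92 (0.887%) passed the edgeR quasi-likelihood test at a Benjamini-Hochberg adjusted p under 0.05, 59 higher (0.569%) and 33 lower (0.318%) at 10 µM. An unadjusted p under 0.05 was reached by 1155 genes. A change of at least 2-fold was estimated for 32 of the 59 and 26 of the 33. The CPM values (counts scaled to the adjusted total of each library) of the groups did not overlap for any of the 92, a pattern that 10.5% of all tested genes showed in the higher and 9.68% in the lower direction. All called genes share this, so non-overlap stated below for single genes describes their values and adds nothing to their calls. The median log2 change of all tested genes was -0.01. The number called was lower whichever library was left out: without 1 µM replicates 1, 2 and 3 it was 29, 44 and 14, and without 10 µM replicates 1, 2 and 3 it was 50, 67 and 15. Each such fit also has a smaller group, so loss of power and dependence on a given library cannot be told apart. Of 44 called genes named here, 7 passed the test in all 6 such fits: AOC3, ERF105, ERF13, FTM1, LHCB1.1, LHCB2.1 and LHCB2.2. With the code digit added as a term over 12 libraries, in which the 10 µM group is set against 1 control library of the same digit, 11 genes were called and 7 of them were among the 92.

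**Figure D1:**
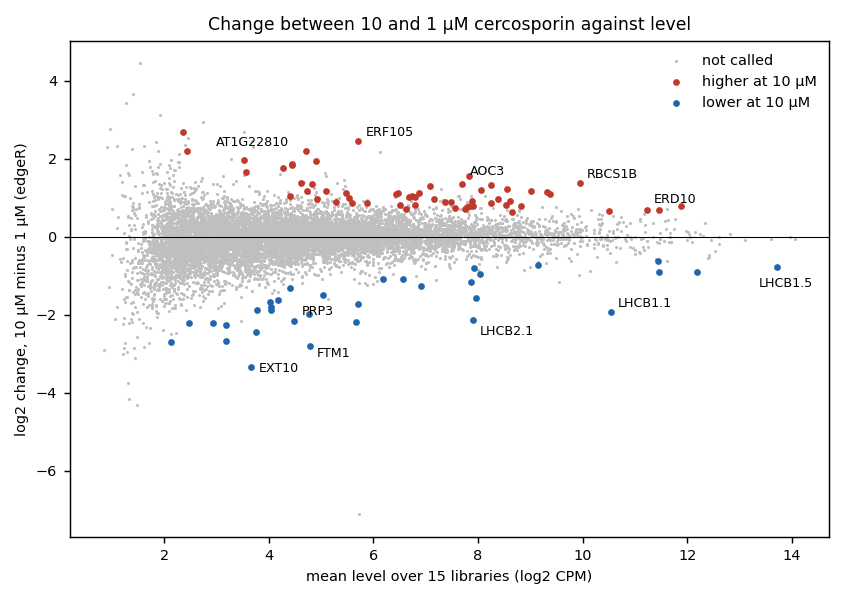
Log2 change between 10 and 1 µM (edgeR, vertical axis) against the mean level over 15 libraries (log2 CPM, horizontal axis), with 1 point for each of 10374 genes tested. The 59 genes called higher are red, the 33 called lower are blue; ERF105 lies at 2.45 and EXT10 at -3.34.

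Here and below, rose and fell mean higher and lower at 10 µM than at 1 µM, and no change from the controls is meant. Of the enzymes of jasmonate synthesis, LOX3, AOS, AOC2 and AOC3 rose, 4 of 13 tested, and none fell. Their median log2 change was 0.66, against -0.01 for all genes. LOX3 (AT1G17420) encodes a plastid lipoxygenase for the entry step of the pathway; it stood at 100.3, 67.4 and 96.2 CPM in the 1 µM libraries and at 143, 158 and 166 CPM in the 10 µM libraries (log2 change 0.81 ± 0.18 (SE), edgeR adjusted p = 0.0404). AOS (AT5G42650), allene oxide synthase, stood at 349.9, 319 and 312 CPM at 1 µM and at 729.8, 642 and 852 CPM at 10 µM (1.18 ± 0.20, adjusted p = 0.00737). In both genes every 10 µM library lay above every 1 µM library. The allene oxide cyclases form the ring of the hormone precursor. AOC2 (AT3G25770) had 479.5, 344 and 330.4 CPM at 1 µM and 796, 849 and 912 CPM at 10 µM (1.15 ± 0.20, adjusted p = 0.00808). AOC3 (AT3G25780) had 153, 109.7 and 113 CPM at 1 µM and 275, 309 and 370.5 CPM at 10 µM (1.34 ± 0.17, adjusted p = 0.000976). Replicate 1 was the highest 1 µM library for both cyclases, and still lay below all 10 µM libraries. The lipoxygenase LOX2 had a mean of 82.2 CPM at 1 µM and 195 CPM at 10 µM and missed the threshold (log2 change 1.23 ± 0.30, adjusted p = 0.0723), as did LOX4 at 0.70 (adjusted p = 0.137) and AOC1 at 0.66 (adjusted p = 0.177). Without 1 µM replicates 1, 2 and 3 the list had 3, 2 and 1 members called, and without 10 µM replicates 1, 2 and 3 it had 3, 3 and 1. With the code digit added as a term it had 0 called and a median of 0.50.

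Of the genes that inactivate jasmonates 3 of 9 tested rose, 0 fell, and all 9 estimates were above 0 (median 0.83). CYP94B3 (AT3G48520), which hydroxylates the active jasmonate-isoleucine conjugate, stood at 72.3, 73.1 and 64.6 CPM at 1 µM and at 151, 129 and 141 CPM at 10 µM (log2 change 1.00 ± 0.17, edgeR adjusted p = 0.00737). Values were tight within each dose, and the highest 1 µM library was far below the lowest 10 µM library. The other called members are annotated as 2-oxoglutarate and Fe(II)-dependent oxygenases: AT2G38240 went from 108, 88.0 and 94.9 to 331, 234 and 297 CPM (1.56 ± 0.29, adjusted p = 0.0132). AT5G05600 had 293, 265 and 282 CPM at 1 µM and 436, 543 and 466 CPM at 10 µM (0.78 ± 0.15, adjusted p = 0.0164). Again the doses did not overlap. CYP94C1, CYP94B1 and ILL6 had log2 changes of 0.68, 1.06 and 0.57 and were not called (adjusted p = 0.0928, 0.138 and 0.515). Leaving out 1 library gave 1, 1 and 0 called members for 1 µM replicates 1, 2 and 3 and 2, 2 and 1 for 10 µM replicates 1, 2 and 3. CYP94B3 was not called without 1 µM replicate 3 (adjusted p = 0.0658). With the code digit added as a term 0 of 9 were called and the median was 0.42. None of 15 tested genes of jasmonate signalling, which covers the receptor, the JAZ repressors and the MYC factors, passed the test; their median was 0.06. JAZ5 had a mean of 19.2 CPM at 1 µM and 41.0 CPM at 10 µM (1.15 ± 0.31, adjusted p = 0.091), the receptor gene COI1 an estimate of -0.95 (adjusted p = 0.34) and JAZ2 one of 1.08 (adjusted p = 0.588).

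**Figure D2:**
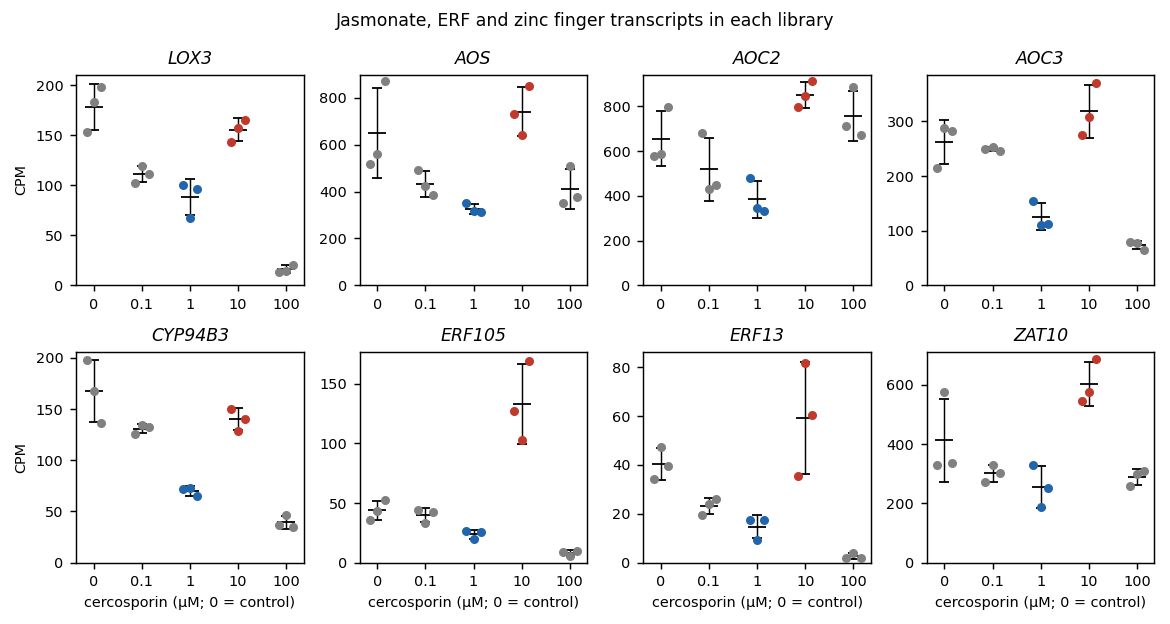
CPM of 8 transcripts in each of the 15 libraries by cercosporin dose (0 is the control). Points are libraries, the bar and whiskers are mean and SD of 3; in all 8 panels each 10 µM library (red) lies above each 1 µM library (blue).

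Of the activating ERFs, factors that bind the GCC box of stress and defence promoters, 2 of 16 tested rose and 0 fell (median 0.49). ERF105 (AT5G51190) stood at 26.3, 19.4 and 25.6 CPM at 1 µM and at 127, 103 and 169 CPM at 10 µM, a log2 change of 2.45 ± 0.23 with the smallest adjusted p of all genes (edgeR, 3.31e-05). The lowest 10 µM library, replicate 2, held more than any library of the controls (mean 43.9 ± 8.21 (SD, n = 3)), of 0.1 µM (mean 40.2 ± 5.76) or of 100 µM (mean 8.31 ± 2.14). ERF105 was also the only gene called between 10 µM and the controls (1.60, adjusted p = 0.00635). ERF13 (AT2G44840) stood at 17.3, 9.14 and 17.58 CPM at 1 µM and at 35.4, 81.6 and 60.5 CPM at 10 µM (1.95 ± 0.30, adjusted p = 0.00438), and again the lowest 10 µM library lay above every 1 µM library. ERF104, RAP2.6 and RRTF1 had estimates of 0.89, 0.73 and 0.95 and were not called (adjusted p = 0.0508, 0.109 and 0.127). Of 7 tested repressing ERFs, which carry a motif that silences their targets, ERF4 (AT3G15210) alone was called: 338, 322 and 318 CPM at 1 µM and 477, 500.4 and 550.1 CPM at 10 µM (0.64 ± 0.13, adjusted p = 0.0212). ERF11, ERF9 and ERF8 had estimates of 0.35, 0.16 and 0.10 (adjusted p = 0.807, 0.864 and 0.944). AT1G22810, of the related DREB group, had 5.97, 18.3 and 10.9 CPM at 1 µM and 49.3, 36.9 and 62.1 CPM at 10 µM (2.18 ± 0.33, adjusted p = 0.00438) and was 1 of 8 tested members called. DDF1, of the same group, had an estimate of 1.22 (adjusted p = 0.0723), RAP2.1 one of 0.33 (0.602) and DREB26 one of -1.69 (0.47). The 3' ends of ERF105 and AT1G22810 lie inside genes of the opposite strand, and whether counting used strand is not given, so reads of the partners could be included. AT1G22810 was not called without 1 µM replicate 3 (adjusted p = 0.0569), nor ERF4 without 1 µM replicates 1, 2 and 3 or 10 µM replicates 2 and 3 (adjusted p up to 0.182). With the code digit added as a term, 1 activating ERF was called and the list's median was 0.13. ERF13, AT1G22810 and ERF4 were then at 1.56, 1.56 and 0.46 and not called (adjusted p = 0.163, 0.154 and 0.345). The repressing ERFs and the DREB group had 0 called, with medians of 0.24 and 0.78 (0.10 and 0.31 without the term).

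Of 9 tested ZAT and AZF zinc finger factors, stress-induced C2H2 proteins, 2 rose and 0 fell (median 0.29). ZAT10 (AT1G27730) stood at 328, 187 and 251 CPM at 1 µM and at 546, 575 and 687 CPM at 10 µM (log2 change 1.23 ± 0.22, edgeR adjusted p = 0.00879). ZAT6 (AT5G04340) stood at 251, 241 and 268 CPM at 1 µM and at 437, 417 and 639 CPM at 10 µM (0.97 ± 0.22, adjusted p = 0.0417). Neither gene's doses overlapped. Among the controls, replicate 2, the control library of code digit 8, had 576 CPM of ZAT10 and 467 CPM of ZAT6, while replicates 1 and 3 had 328 and 337 CPM of ZAT10 and 216 and 305 CPM of ZAT6. With the code digit added as a term, ZAT10 was at 0.42 and ZAT6 at 0.11 (adjusted p = 0.562 and 0.916), 0 members of the list were called and its median was -0.11. The control of digit 8 was above both other controls for 23 and below both for 15 of the 59 higher genes. For the 33 lower genes it was above both for 11 and below both for 15. Over all 10374 tested genes it was above both for 3682 (35.5%) and below both for 3818 (36.8%). This is 1 library, and the part of the code digit in the calls was not tested. ZAT10 was not called without 1 µM replicates 2 and 3 or 10 µM replicate 3 (adjusted p up to 0.0814), nor ZAT6 without 1 µM replicates 1, 2 and 3 or 10 µM replicates 1 and 3 (up to 0.31). ZAT12 and AZF3 had estimates of 0.80 and 0.71 (adjusted p = 0.0723 and 0.0772) and AT2G28200 one of -0.53 (0.475).

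Promoter letters were read from the TAIR10.1 assembly of RefSeq as the 250 bases before each annotated gene start, with no claim that the counts used this build. The GCC box (GCCGCC on either strand) was present in 5 of 58 promoters of genes called higher (8.62%) and 1 of 32 of genes called lower (3.12%). Over all nuclear protein-coding genes of the annotation, tested here or not, it was present in 513 of 27443 (1.87%). The share among the tested genes alone was not taken. The 5 promoters of genes called higher were those of ZAT10, ZAT6, ABR1, MKK9 and AT5G42570. The DRE core (CCGAC on either strand) was present in 19.0%, 12.5% and 12.0% of the same sets, the G-box (CACGTG) in 12.1%, 6.25% and 6.49%, and the W-box core (TTGAC on either strand) in 50.0%, 40.6% and 44.9%. The remaining motifs searched were CGCGTT, in 5.17%, 0% and 2.59%, and the evening element AAAATATCT, in 6.9%, 3.12% and 2.36%, both on either strand. These shares describe letters only and were not tested. The promoters of the called zinc finger factors and of the called kinase are given because each holds a GCC box. All lie on the minus strand of their chromosomes and are written 5′ to 3′ towards the gene; capitals mark GCC box, DRE core and W-box core letters in either orientation.
ZAT10: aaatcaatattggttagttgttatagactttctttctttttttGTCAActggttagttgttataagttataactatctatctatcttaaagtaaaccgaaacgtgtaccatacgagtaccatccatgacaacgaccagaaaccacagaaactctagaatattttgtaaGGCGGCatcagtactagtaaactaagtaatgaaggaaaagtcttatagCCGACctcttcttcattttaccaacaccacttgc
ZAT6: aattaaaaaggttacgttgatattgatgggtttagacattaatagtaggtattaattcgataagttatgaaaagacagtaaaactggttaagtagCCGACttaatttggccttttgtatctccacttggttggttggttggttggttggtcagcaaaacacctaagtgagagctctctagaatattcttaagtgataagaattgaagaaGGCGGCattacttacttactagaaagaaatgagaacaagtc
MKK9: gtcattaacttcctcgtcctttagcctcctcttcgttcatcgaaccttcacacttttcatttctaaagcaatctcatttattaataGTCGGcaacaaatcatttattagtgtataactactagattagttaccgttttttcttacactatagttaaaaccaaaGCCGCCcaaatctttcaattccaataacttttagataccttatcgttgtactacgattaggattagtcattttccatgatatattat
Counted back from the gene start, the GCC box lay at bases 82 to 77 in ZAT10, 41 to 36 in ZAT6 and 87 to 82 in MKK9, and read in the direction of the gene in MKK9 and in reverse in both ZAT genes. In these 3 promoters the GCC box and the DRE core did not overlap.

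The singlet oxygen marker list, genes known from Arabidopsis work with plastid singlet oxygen, had 4 of 16 tested members higher (BAP1, ERF4, ZAT10 and LOX3) and 0 lower (median 0.67). ERF4, ZAT10 and LOX3 were already counted as calls of lists above, so of the 4 only BAP1 is added here. BAP1 (AT3G61190), a membrane-associated inhibitor of cell death, stood at 59.7, 53.7 and 51.1 CPM at 1 µM and at 126, 115 and 119 CPM at 10 µM (1.13 ± 0.25, edgeR adjusted p = 0.0394), with little spread inside either dose. ZAT12, WRKY40 and LOX4 missed the threshold at 0.80, 1.02 and 0.70 (adjusted p = 0.0723, 0.0744 and 0.137). With the code digit added as a term the list had 0 members called and a median of -0.01, and without 1 µM replicates 1, 2 and 3 it had 1, 0 and 0 called, without 10 µM replicates 1, 2 and 3 it had 3, 1 and 0. BAP1 was not called without any 1 of the 6 libraries (adjusted p up to 0.189). MKK9 (AT1G73500), a kinase that activates mitogen-activated protein kinases in stress and ethylene responses, was the 1 called member of 11 tested kinase and early immune genes: 213, 154 and 152 CPM at 1 µM against 278, 298 and 322 CPM at 10 µM (0.79 ± 0.15, adjusted p = 0.0181). MKK9 was not called without 1 µM replicates 2 and 3 or 10 µM replicate 3 (adjusted p up to 0.144). The median of its list was 0.09, with 7 estimates above 0 and 4 below. MPK6, CYP81F2 and PUB22 had estimates of -0.61, -1.82 and 2.18 and were not called (adjusted p = 0.118, 0.223 and 0.435). None of 13 tested WRKY factors was called (median 0.05); WRKY40, WRKY48 and WRKY33 had estimates of 1.02, 0.93 and 0.87 (adjusted p = 0.0744, 0.0953 and 0.193).

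Heat-inducible chaperones had the highest median of the 31 lists, 0.94, with 12 of 14 estimates above 0, but 1 member was called. AT1G53540, a small heat shock protein, had 1.79, 5.71 and 5.11 CPM at 1 µM and 8.22, 12.99 and 17.1 CPM at 10 µM (log2 change 1.66 ± 0.39, edgeR adjusted p = 0.049). HSP17.6II, MBF1C and HSP101 had estimates of 1.61, 1.00 and 0.97 and missed the threshold (adjusted p = 0.0993, 0.109 and 0.127). Of 15 tested dehydrin, cold and abscisic acid genes 1 rose, ERD10 (AT1G20450), a dehydrin that protects proteins and membranes in drying cells. It stood at 2071, 1981 and 2247 CPM at 1 µM and at 3292, 2916 and 3844 CPM at 10 µM (0.67 ± 0.13, adjusted p = 0.0211). KIN1, ERD14 and RD29A had estimates of 0.85, 0.43 and 0.57 (adjusted p = 0.0993, 0.124 and 0.126), and the list's median was 0.43. AT1G53540, close to the threshold, lost its call in 10 of 17 alternatives: with limma-voom (adjusted p = 0.0642), no filter (0.0516), a stricter filter (0.0503), thinning (0.358), the code digit (0.305), and without 1 µM replicates 1, 2 and 3 or 10 µM replicates 2 and 3 (up to 0.306). Nor was ERD10 called without 1 µM replicates 1, 2 and 3 or 10 µM replicates 1 and 3 (up to 0.193).

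Outside the lists, the highest estimate was that of AT3G28270, annotated as a DUF677 transmembrane protein, with 1.19, 0 and 2.24 CPM at 1 µM and 10.8, 8.46 and 10.6 CPM at 10 µM (2.67 ± 0.48, edgeR adjusted p = 0.00963). AT2G44578, a RING/U-box protein, had 2.99, 1.143 and 2.24 CPM at 1 µM and 11.4, 12.99 and 7.76 CPM at 10 µM (2.196 ± 0.485, adjusted p = 0.038). Both passed the count filter only through the 10 µM group, so a difference was built in and their values are a description, and AT2G44578 shares its 3' end with the near-identical AT2G44581. The low-sulfur response gene LSU3 (AT3G49570) had 10.7, 6.86 and 9.59 CPM at 1 µM and 37.3, 23.0 and 35.3 CPM at 10 µM (1.75 ± 0.37, adjusted p = 0.0285). CORI3 (AT4G23600), a lyase known to be induced by jasmonate and coronatine, had 13.7, 11.4 and 12.1 CPM at 1 µM and 29.7, 31.7 and 35.9 CPM at 10 µM (1.38 ± 0.28, adjusted p = 0.0232). UGT76E1 (AT5G59580), a glucosyltransferase, rose by 1.98 ± 0.45 on the log2 scale (0.0418), and the uncharacterised AT3G50800 and AT1G47130 by 1.87 and 1.83 (adjusted p = 0.00773 and 0.0359). AT3G50800 and AT3G28270 were not called without 1 µM replicate 1 or 10 µM replicate 3 (adjusted p up to 0.0795). AT2G44578 was not called without any 1 of the 6 libraries (adjusted p up to 0.203). When each library was left out in turn, LSU3 was lost in all fits but that without 10 µM replicate 2, and CORI3, UGT76E1 and AT1G47130 in all but that without 10 µM replicate 1 (adjusted p up to 0.244). Chosen after their values were seen, the starch-degrading beta-amylase CT-BMY (1.33, adjusted p = 0.00525), the AP2-domain factor ABR1 (1.02, 0.00808) and the danger peptide receptor PEPR1 (0.86, 0.038) were also higher at 10 µM.

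Of 20 tested light-harvesting genes 6 fell, 0 rose and 14 did not pass the test; 18 estimates were below 0 and 2 above (median -0.58). The called genes were LHCB1.1, LHCB1.2, LHCB1.5, LHCB2.1 and LHCB2.2 of the photosystem II antenna and LHCA4 of the photosystem I antenna. LHCB1.1 (AT1G29920) stood at 3146, 2088 and 3067 CPM at 1 µM and at 525, 729 and 906 CPM at 10 µM (log2 change -1.94 ± 0.21, edgeR adjusted p = 8.17e-05). LHCB2.1 (AT2G05100) stood at 376, 241 and 427 CPM at 1 µM and at 65.8, 88.2 and 81.8 CPM at 10 µM (-2.15 ± 0.21, adjusted p = 4.54e-05). Replicate 2, the smallest library, was the lowest of the 1 µM group for both and still lay well above all 10 µM libraries. LHCB2.2 (AT2G05070) had 373, 278 and 414 CPM at 1 µM and 99.9, 130.2 and 129.7 CPM at 10 µM (-1.56 ± 0.21, adjusted p = 0.000976). LHCA4 (AT3G47470) had 3664, 2774 and 4295 CPM at 1 µM and 1912, 1718 and 2104 CPM at 10 µM (-0.90 ± 0.17, adjusted p = 0.0157). LHCB1.2 and LHCB1.5 changed less, by -0.91 ± 0.18 and -0.77 ± 0.16 (adjusted p = 0.0204 and 0.0282), and LHCB4.2, LHCB3 and LHCA1 had estimates of -0.89, -1.15 and -0.54 without passing the test (adjusted p = 0.0615, 0.104 and 0.114).

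Members of the LHCB1 and LHCB2 families share near-identical 3' ends, so reads could be split between them, and the families were also tested as sums. The 3 LHCB2 genes together stood at 974, 738 and 1153 CPM at 1 µM and at 411, 354 and 442 CPM at 10 µM, and the sum was lower by test (log2 change -1.25 ± 0.19, edgeR adjusted p = 0.00531). The 5 LHCB1 genes together stood at 52724, 38588 and 49437 CPM at 1 µM and at 32179.9, 31567 and 32617 CPM at 10 µM; the doses did not overlap, but the sum missed the threshold (-0.55 ± 0.16, adjusted p = 0.123). LHCB1.3 at -0.06 and LHCB1.4 at -0.52 were not called (adjusted p = 0.937 and 0.284). The number of light-harvesting genes called was 3, 6 and 3 without 1 µM replicates 1, 2 and 3 and 3, 4 and 3 without 10 µM replicates 1, 2 and 3. With the code digit added as a term, 1 light-harvesting gene, LHCB1.1, was called, the list's median was -0.15 and the LHCB2 sum was at -0.77 (adjusted p = 0.258).

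Among 33 tested photosystem and Calvin cycle genes 0 fell and 1 rose, RBCS1B (AT5G38430), a small subunit of Rubisco, with 625, 610.3 and 680.3 CPM at 1 µM and 2013, 1374 and 1573 CPM at 10 µM (1.37 ± 0.29, edgeR adjusted p = 0.0272). The list's median was -0.09. PSAD-2, RCA and PSAN had estimates of -0.56, -0.45 and -1.06 (adjusted p = 0.12, 0.224 and 0.245). All 10 µM libraries of RBCS1B exceeded the 1 µM libraries more than 2-fold, and the controls spread from 843 to 2150.1 CPM. RBCS1B was not called without 1 µM replicates 1, 2 and 3 or 10 µM replicates 1 and 3 (adjusted p up to 0.129).

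Wall protein genes of root hairs had the lowest median of the 31 lists, -1.54, with 19 of 20 tested members below 0, 9 called lower and 0 higher. EXT10 (AT5G06640), an extensin, fell most of all called genes: 8.96, 18.3 and 29.4 CPM at 1 µM and 1.26, 2.115 and 2.00 CPM at 10 µM (log2 change -3.34 ± 0.56, edgeR adjusted p = 0.00757). PRP3 (AT3G62680), a proline-rich wall protein of root hairs, stood at 31.7, 20.6 and 39.6 CPM at 1 µM and at 5.69, 7.25 and 7.76 CPM at 10 µM (-2.16 ± 0.33, adjusted p = 0.00438). The 1 µM libraries of both genes were widely spread, and the lowest of them was above the highest 10 µM library. AT3G54580, annotated as an extensin-like protein, had 77.6, 44.6 and 96.8 CPM at 1 µM and 13.9, 24.8 and 10.9 CPM at 10 µM (-2.18 ± 0.44, adjusted p = 0.0212). HRGP1 (AT3G54590), a hydroxyproline-rich glycoprotein, had 38.8, 24.0 and 52.4 CPM at 1 µM and 16.4, 9.67 and 6.65 CPM at 10 µM (-1.97 ± 0.45, adjusted p = 0.0419). The peroxidase AT1G30870 changed by -1.61 ± 0.31 (adjusted p = 0.018) and EXT11 by -2.22 ± 0.52 (adjusted p = 0.049). EXT12, the peroxidase AT4G26010 and the extensin-like AT1G23720 had estimates of -2.16, -1.25 and -1.23 and missed the threshold (adjusted p = 0.0723, 0.0723 and 0.135).

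Some of these genes also have near-identical partners. EXT6 (-2.26 ± 0.46) and AT5G06630 (-2.43 ± 0.50) form 1 pair, and summed they stood at 31.6, 33.4 and 33.8 CPM at 1 µM and at 1.91, 6.96 and 8.04 CPM at 10 µM (-2.39 ± 0.39, edgeR adjusted p = 0.00728). AT4G08400 (-2.21 ± 0.46) and AT4G08410 (-2.67 ± 0.59) form the other, with a sum of 18.5, 24.2 and 25.1 CPM at 1 µM and 3.81, 5.75 and 2.90 CPM at 10 µM (-2.44 ± 0.46, adjusted p = 0.016). Both sums kept the direction of their members, and neither overlapped between doses. The number of wall genes called was 3, 6 and 0 without 1 µM replicates 1, 2 and 3, 4, 4 and 1 without 10 µM replicates 1, 2 and 3, and 1, with a median of -1.64, once the code digit was fitted too. PRP3 was not called without 1 µM replicate 3 (adjusted p = 0.0574), nor EXT10 without 1 µM replicate 3 or 10 µM replicate 3 (up to 0.104). The sum of EXT6 and AT5G06630 was not called without 1 µM replicate 3 (0.0551), and the sum of the other pair neither without 1 µM replicate 3 or 10 µM replicates 1 and 3 (up to 0.153) nor with the code digit (0.0816).

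Summed markers of root tissue and of root hairs were set beside these genes. The root markers, 14 genes counted, took 0.0393 to 0.0546% of counts at 1 µM and 0.0243 to 0.0374% at 10 µM, and 5 root hair markers took 0.00384 to 0.00689% at 1 µM and 0.0017 to 0.00197% at 10 µM. Neither range overlapped between doses (exact two-sided permutation test, p = 0.1 for each, the smallest p that 3 against 3 allows; adjusted p = 0.3 over 6 shares). The controls lay at 0.0279 to 0.0398% and 0.0025 to 0.00451%. Of 13 tested root markers 1 fell, TIP2;3 (AT5G47450), an aquaporin of the vacuole membrane, with 96.1, 42.3 and 89.2 CPM at 1 µM and 20.2, 30.5 and 19.3 CPM at 10 µM (-1.73 ± 0.38, edgeR adjusted p = 0.038). NRT2.1, PER64 and ESB1 had estimates of -0.97, -1.004 and -0.87 (adjusted p = 0.0612, 0.0987 and 0.131), and the median of the list was -0.49. TIP2;3 was not called without 1 µM replicates 1 and 3 or 10 µM replicates 1, 2 and 3 (adjusted p up to 0.225). The 5 root hair markers are all members of the wall gene list, PRP3 among them, so their share is not separate from the wall gene result. PRP3 gave 195 raw counts at 1 µM and 68 at 10 µM, the most of the 5 at both doses. The part of the marker shares in the wall gene result was not tested. In whole seedlings fewer cells of a type and less RNA per cell cannot be told apart. Shares of plastid-encoded, mitochondrial, leaf marker and guard cell marker counts overlapped between the doses (exact p = 0.4, 0.8, 0.3 and 0.5).

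**Figure D3:**
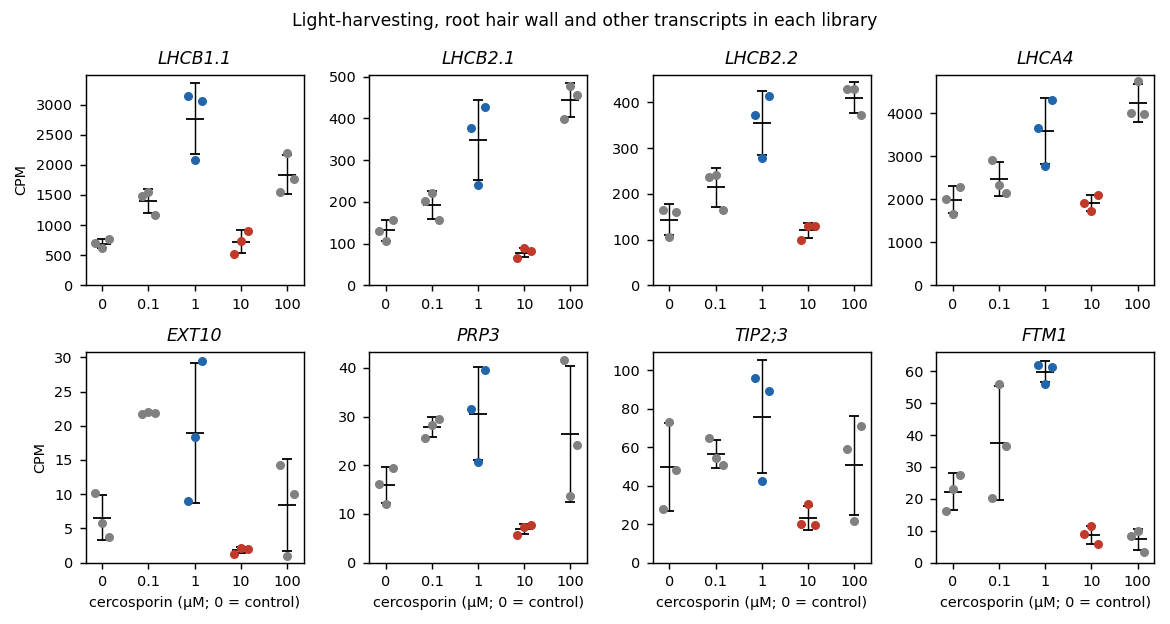
CPM of 4 light-harvesting genes (top) and of EXT10, PRP3, TIP2;3 and FTM1 (bottom) in each library by cercosporin dose (0 is the control), with mean and SD of 3 libraries. In every panel the 10 µM libraries (red) lie below all 1 µM libraries (blue), and for LHCB1.1 the controls lie near the 10 µM level.

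Further genes fell outside the lists. FTM1 (AT1G43800), a stearoyl-acyl-carrier-protein desaturase, stood at 62.1, 56.0 and 61.4 CPM at 1 µM and at 8.85, 11.48 and 5.76 CPM at 10 µM (log2 change -2.81 ± 0.37, edgeR adjusted p = 0.000976). The 1 µM libraries were close to each other and the controls (mean 22.3 ± 5.74 CPM) lay between the doses. The peroxidase AT1G44970 had 5.97, 2.29 and 7.35 CPM at 1 µM and 0.632, 0.907 and 0.887 CPM at 10 µM (-2.69 ± 0.56, adjusted p = 0.0272), close to 0 at both doses, and was not called without 1 µM replicates 1 and 3 or 10 µM replicates 1, 2 and 3 (adjusted p up to 0.225). Chosen after their values were seen, the xyloglucan enzyme XTH14 (-1.67, adjusted p = 0.00879), the B-box factor BBX28 (-1.31, 0.038) and the leucine breakdown enzyme MCCA (-1.08, 0.00438) were lower at 10 µM.

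In the other lists no member passed the test. Starvation and senescence genes had a median of -0.56 over 10 tested, with DIN6 at -0.64, GDH2 at -1.20 and DIN4 at -1.50 (edgeR adjusted p = 0.0723, 0.104 and 0.208). Clock genes had a median of -0.25 over 9, with GI at -0.66, PRR5 at -1.10 and TOC1 at 0.35 (adjusted p = 0.157, 0.198 and 0.526). Antioxidant enzymes and ferritins, which remove reactive oxygen or store iron, had a median of 0.09 over 23 tested, 13 above 0 and 10 below. The ascorbate peroxidase APX1 was at 0.46, AT3G52960 at -0.52 and PDX1.2 at 0.97 (adjusted p = 0.239, 0.267 and 0.407). Detoxification genes had a median of 0.36 over 12, led by NAC032 at 0.96 and the reductase OPR1 at 1.03 (adjusted p = 0.0913 and 0.174). The remaining lists without a call were ethylene synthesis and signalling (median -0.07), touch and calcium genes (0.21), salicylate and EDS1 genes (0.12), expansins and xyloglucan enzymes (0.17), phenylpropanoid and flavonoid genes (0.35), acute light genes (0.36), Aux/IAA and GH3 genes (0.13), glucosinolate synthesis (0.36), leaf markers (0.06), guard cell markers (0.23) and epidermis and phloem markers (0.02).

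**Figure D4:**
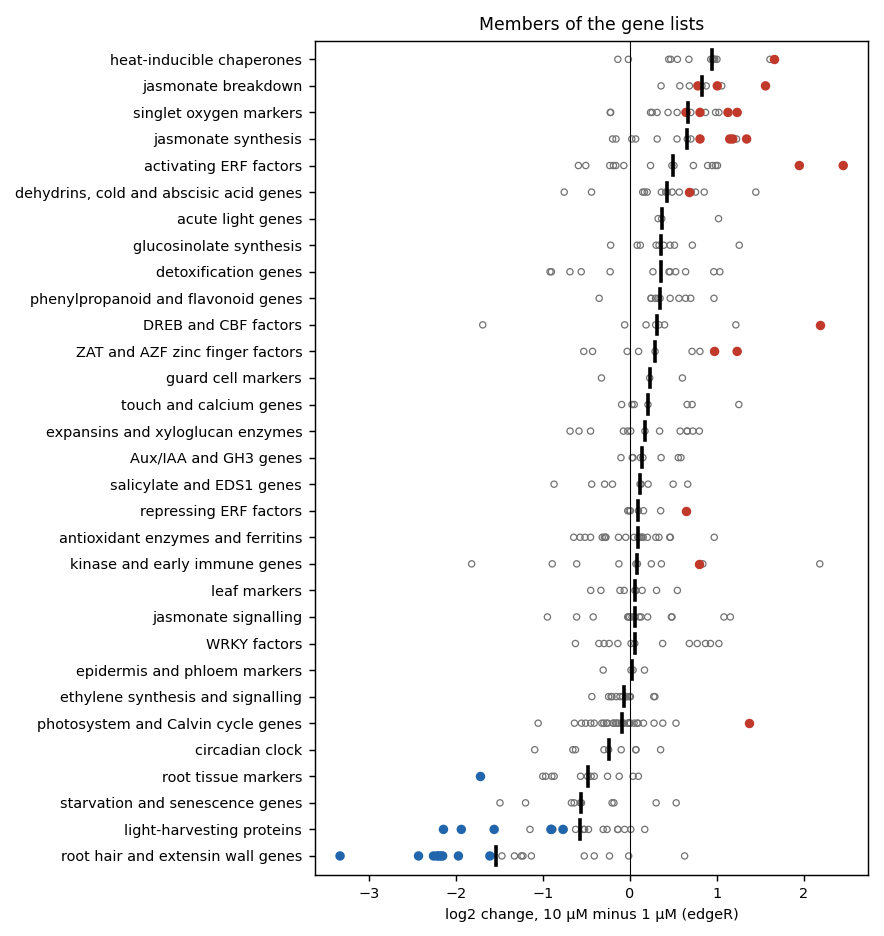
Log2 change between 10 and 1 µM (edgeR, horizontal axis) of every tested member of the 31 gene lists, ordered by the list median (black bar). Filled points passed the test, red higher and blue lower at 10 µM; jasmonate synthesis has 4 filled points and root hair and extensin wall genes have 9.

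The called genes were then set beside the other groups, whose comparisons share libraries with this one, so that their calls are not independent of it. The genes were chosen for a gap between 1 and 10 µM, so other groups would tend to lie between these doses. Counts of where a mean lay describe the called genes only and were not taken over all genes tested. The control mean lay between the means of both doses for 48 of the 59 genes higher at 10 µM and for 31 of the 33 lower ones. For the other 11 and 2 it lay beyond the 10 µM mean. On the log2 scale the control mean was nearer to the 10 µM than to the 1 µM mean for 44 and 17 genes. The 0.1 µM mean lay between the means of both doses for 58 and 25 genes. The 100 µM mean lay on the 1 µM side of the 10 µM mean for 56 and 32 genes, which the choice of genes also favours. Between 1 µM and the controls 19 genes were called (0.183%), 5 higher (0.0482%) and 14 lower (0.135%), and between 10 µM and the controls 1 gene (0.00964%), ERF105. LHCB1.1 stood at 693 ± 76.5 CPM in the controls (SD, n = 3), and its estimates against them were 2.00 at 1 µM (adjusted p = 0.000166) and 0.06 at 10 µM (0.996). Reads could be split within its family, and the LHCB1 sum was not called against the controls: 0.47 at 1 µM (0.431) and -0.08 at 10 µM (0.99). CYP94B3 stood at 167 ± 30.5 CPM in the controls, with -1.26 at 1 µM (0.00268) and -0.26 at 10 µM (0.939). AOC3, at 262 ± 40.3 CPM in the controls, had -1.06 at 1 µM (0.0137) and 0.29 at 10 µM (0.936). These 3 genes passed the test against the controls at 1 µM and did not at 10 µM. At 1 µM the call of CYP94B3 ended without 1 µM replicate 3 (adjusted p = 0.0653) and that of AOC3 without control replicates 2 and 3 or 1 µM replicates 2 and 3 (up to 0.171), and at 10 µM that of ERF105 without control replicate 2 (0.0744) or 10 µM replicate 3 (0.0979). The controls had another light regime, and a difference from them holds light, soaking and toxin together.

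**Figure D5:**
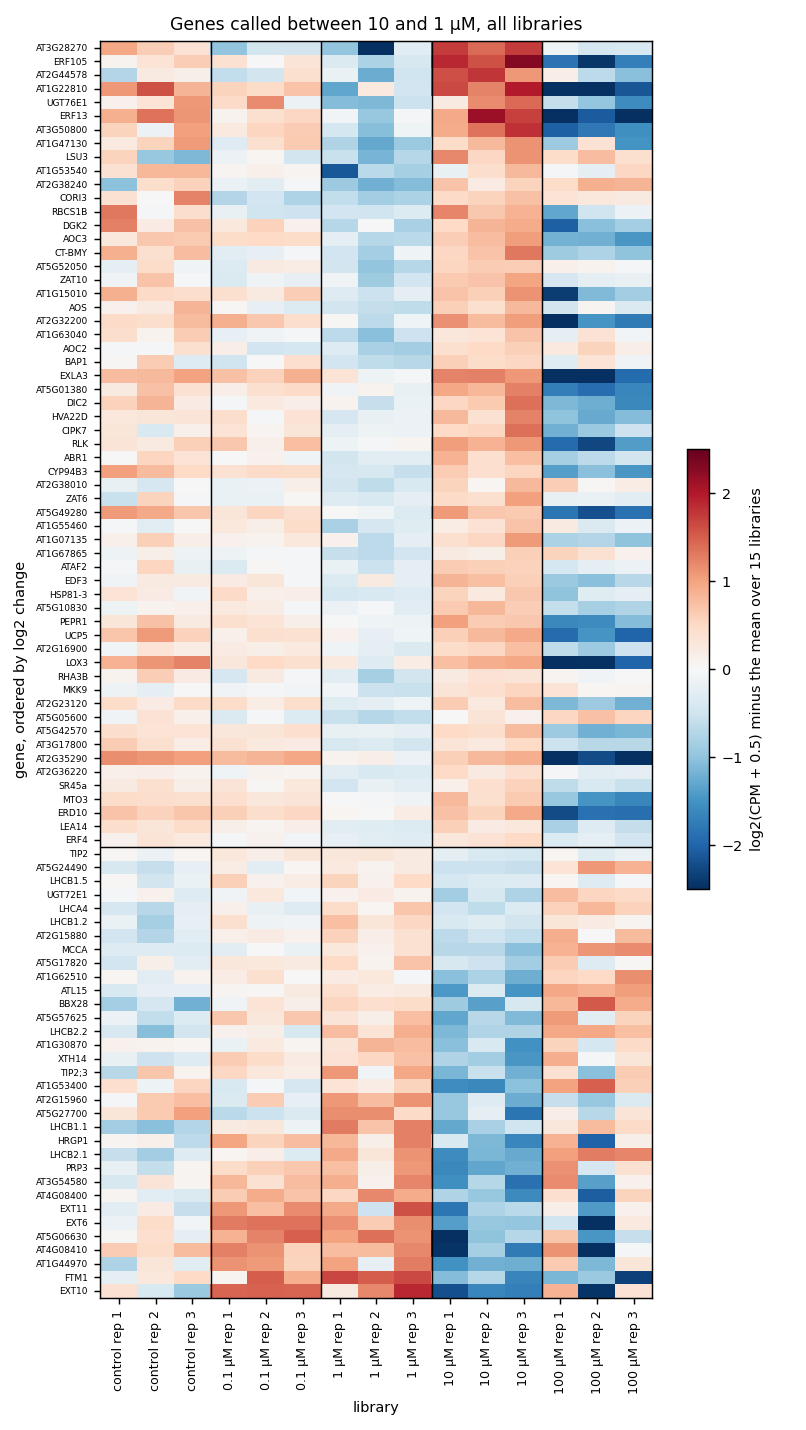
Log2(CPM + 0.5) of the 92 called genes (rows, ordered by log2 change between 10 and 1 µM, the line separating 59 higher from 33 lower) in all 15 libraries (columns), each minus the gene's mean over the libraries. The genes were chosen by the test of 10 against 1 µM, so the contrast of those columns is built in. The control mean lies between the doses for 48 of the 59 and 31 of the 33 genes.

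The authors' deposited table holds a DESeq2 comparison of the same libraries under group numbers, which were matched to the doses by their fold changes. By the authors' deposited table, an adjusted p under 0.05 was reached by 151 genes, 89 higher and 62 lower at 10 µM, and all 92 genes called here were among them in the same direction.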

How the data were processed

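Per the labels, RNA of whole seedlings was extracted with Trizol and sequenced by bulk MARS-seq. Per the submitters' processing notes, the tools were bcl2fastq 2.17.1.14, cutadapt 1.8.3, STAR, HTSeq and DESeq2; the sources used here give neither the genome build nor the annotation or strand setting. Per the file headers, the deposited counts are raw counts per gene without filtering on molecular identifiers, so amplification copies are included and counting precision is overstated. For pairs of groups the authors deposited DESeq2 results: a log2 fold change, a p-value and its adjusted form.

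Counts of 14190 genes in 15 libraries were fitted in edgeR 4.0.16 (R 4.3.3) with TMM factors, filterByExpr and a group term; 10374 genes passed. Quasi-likelihood tests were adjusted by Benjamini-Hochberg over all genes tested, threshold 0.05. The standard error of a log2 change is its size divided by the square root of the F statistic. CPM use the TMM-adjusted total. The biological coefficient of variation was 20.6%. Replicates differed beyond counting noise. Amplification copies could also give this, so it cannot show whether the replicates were separate cultures. They were kept as 3 per group, as labelled. Alternatives covered DESeq2 1.42.0, limma 3.58.1, filters, libraries fitted, thinning, and leaving out each library.

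Named genes were the 12 with the largest change in each direction among called genes whose groups do not overlap, every called member of 31 lists, and up to 3 uncalled members per list with the smallest p; a few others are marked. Members and lists were chosen with earlier results of these data known. Names came from the TAIR10.1 table, which matched 14103 identifiers. Genes count as near-identical copies where blastn 2.17.0 aligned 75 or more of their last 500 transcript bases at 90% identity or more.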

Additional observations from a re-analysis of the deposited data

How the results depend on the processing

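Of the 44 named genes that were called, none reversed under any alternative, and ERF105 and LHCB1.1 passed the test in all 17. Scaling hardly mattered: DESeq2 size factors and upper quartile factors gave 88 and 89 calls. More genes were called (in all, higher, lower) by the DESeq2 test (216, 132, 84), with only the 6 libraries of both doses (270, 156, 114) and without the 100 µM libraries (232, 141, 91). The code digit as a term left 11 (4, 7), with 6 of the 44 named genes, and there the LHCB2 sum was at -0.77; the cause was not tested. Leaving out genes with a near-identical copy left 22 lower, fewer genes being tested. Leaving out 1 library gave 14 to 67 calls, 7 to 42 higher and 6 to 27 lower, and kept 9 (without 1 µM replicate 3) to 26 (without 10 µM replicate 2) of the 44 named genes.

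Replicate numbers did not pair the samples (correlations of deviations -0.09, -0.01 and -0.04 for same-numbered libraries). The fit with a replicate block called 99 genes, 63 higher and 36 lower, 81 of them among the 92; TIP2;3, EXT11, AT4G08410, UGT76E1 and AT2G44578 lost their calls (adjusted p = 0.0535 to 0.0707). It also put the LHCB1 sum at -0.53 (edgeR adjusted p = 0.0497). With the 6 libraries alone that sum was at -0.56 (adjusted p = 0.0486).

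Among single genes and shares, values that reversed were uncalled ones: FDH at -0.32 (limma-voom), -0.0012 (6 libraries), -0.032 (block) and -0.17 (thinned); BCAT4 at -0.038 (thinned); and, with the code digit, ERF9 at -0.036, RCA at 0.12, PSAN at 0.32 and DREB26 at 1.302. Leaving out 1 library gave -0.98 to 0.49 for FDH, -0.14 to 0.60 for ERF11, -0.0499 to 0.57 for CHS, -0.28 to 0.94 for SLAC1, -0.00898 to 0.32 for ERF9, -0.17 to 0.24 for ERF8 and -0.171 to 0.0678 percentage points for the mitochondrial share. The code digit turned the medians of 9 of the 31 lists: singlet oxygen markers (0.67 to -0.0083), ZAT and AZF (0.29 to -0.11), WRKY (0.05 to -0.17), touch and calcium (0.21 to -0.066), kinase and early immune (0.09 to -0.39), salicylate and EDS1 (0.12 to -1.60), detoxification (0.36 to -0.45), glucosinolate (0.36 to -0.0087) and photosystem and Calvin cycle genes (-0.09 to 0.33). The other alternatives turned 0 to 5 list medians each, and thinning turned the most. The leaf marker difference was 0.0039 percentage points without the 10 most abundant genes. Thinning to 834190 counts per library left 67 calls among 7621 genes tested, against 92 among 10374 at full depth.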

Other observations

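AT3G43850, an uncharacterised protein gene chosen after its values were seen, had the largest estimate of all genes that were not called between 10 and 1 µM (log2 change -7.11 ± 1.78 (SE), edgeR adjusted p = 0.0723). Its raw counts were 185, 1 and 362 in the 1 µM libraries and 0, 2 and 3 in the 10 µM libraries. Elsewhere they were 231, 117 and 0 in the controls, 4, 140 and 0 at 0.1 µM and 244, 77 and 270 at 100 µM. Every library thus held either at most 4 counts or at least 77, and both kinds occurred inside the controls, the 0.1 µM group and the 1 µM group.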
